A study of Mus musculus with 4 samples.

Results

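Neutrophils carry their antimicrobial proteins in granules that are filled in sequence as the cell matures in the bone marrow, and 9 genes of this program were followed here in the primary tumor and the lung of mice with 4T1 breast cancer. The genes were taken by their symbols, are 9 of the 19465 genes on the probe panel, and all 9 were measured. S100a8 and S100a9 encode the 2 subunits of calprotectin, a calcium-binding alarmin of the neutrophil cytosol. Camp, Ngp and Ltf encode the cathelicidin, neutrophilic granule protein and lactoferrin, which are laid down in specific granules at an early stage of maturation and are called the early genes here. Retnlg, Mmp8 and Ly6g encode a resistin-like protein, neutrophil collagenase and the surface antigen recognized by common anti-neutrophil antibodies, and are called the mature genes. Prok2 encodes prokineticin 2, a secreted protein that neutrophils make in response to granulocyte colony-stimulating factor (G-CSF). Transcripts of the early genes are typical of the marrow stages and fade in circulating cells, so that the proportion of early to mature transcripts is commonly read as a sign of maturation.

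The data are spatial transcriptomes (Visium) of 1 primary tumor section and 1 lung section from each of 2 BALB/c mice, Mouse_627 and Mouse_628. All 4 sections share the same treatment, an injection of 100000 cells of 4T1, a murine mammary carcinoma line, into the mammary fat pad at 8 weeks of age, and all were taken 28 days later as 4 µm sections of fixed, paraffin-embedded tissue. No tissue of an uninjected mouse was analysed here, so the lung levels have no tumor-free reference. The assay counts probe pairs by unique molecular identifiers (UMIs) on barcoded spots, each of which covers a patch of tissue with several cells, often of more than 1 type. The study set metastases against primary lesions in human tissue, and in these mice tested the resulting gene signature in foci of the lung. The comparison of both tissues and of tumor-marker-rich with tumor-marker-poor lung spots follows from that question. That of hypoxic with non-hypoxic tumor spots was added here.

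The 9339 of 9445 spots with more than 200 genes were kept, and their UMIs were summed by section and scaled to 1000000 UMIs (CPM). The sections held between 10890154 and 30240176 UMIs, with medians of 2931 and 1820 UMIs per spot in the primary tumors of Mouse_627 and Mouse_628 and of 6555 and 9174.5 in the lungs. The labels of the tissues were matched by their markers. Genes of the alveolar epithelium such as Sftpc and Ager summed to 13666 and 7726 CPM in the lungs and to 24.4 and 69.0 CPM in the primary tumors, and tumor markers such as Mmp3 and Hmga2 to 3422 and 4288 CPM in the primary tumors and to 202 and 1138 CPM in the lungs. Of the 6 tumor markers tested singly, 1 (Lgals7) passed as lower in the lung, where 1.15% of all genes did. Epcam, an epithelial gene at 5.32 and 10.7 CPM in the tumors and 55.8 and 39.4 CPM in the lungs, passed as higher (edgeR adjusted p = 0.00959), where 6.31% did. With the mouse as a block 3 passed as lower, Lgals7, Hmga2 and Mmp3, where 2.73% of all genes did. Epcam passed as higher there, where 9.17% did. As a gauge of probe background, 1178 olfactory and vomeronasal receptor genes, which these tissues are not known to use, had a median of 0.591 CPM in the primary tumor of Mouse_627, 6.61 CPM in that of Mouse_628, and 0.180 and 0.132 CPM in the lungs. The background was thus higher in the primary tumor of Mouse_628 than in the other 3 sections. Since the UMIs of a gene depend on its probes, levels are compared between sections and not between genes.

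The 9 genes lie on 5 mouse chromosomes (GRCm38, the mm10 build of the files). S100a8 (chr3:90668978-90670035) and S100a9 (chr3:90692632-90695721) are neighbors on chromosome 3, with no other panel gene in the 22596 bases between them. The 3 early genes lie within 1195389 bases of chromosome 9, Camp at chr9:109847379-109849617, Ngp at chr9:110419747-110423012 and Ltf at chr9:111019271-111042767. Of the mature genes, Mmp8 is at chr9:7558456-7568485, Retnlg at chr16:48872621-48874496 and Ly6g at chr15:75155240-75159126, and Prok2 is at chr6:99711299-99726392. The DNA just before the transcription start is shown for a pair of early genes, Ngp and Ltf, and a pair of mature genes, Retnlg and Mmp8, since the members of each pair moved together between the tissues. The stretches are chr9:110419558-110419746, chr9:111019042-111019270, chr16:48872358-48872607 and chr9:7558179-7558428, all on the plus strand and read 5′ to 3′, from the RefSeq promoters of GRCm38.p6. Bases inside a GENCODE transcript are left out, and capitals mark matches, on either strand, to TTGCNNAA, a core of the sites of C/EBP factors of the granulocyte lineage, or to GAGGAAGT, a core of the sites of PU.1.
Ngp: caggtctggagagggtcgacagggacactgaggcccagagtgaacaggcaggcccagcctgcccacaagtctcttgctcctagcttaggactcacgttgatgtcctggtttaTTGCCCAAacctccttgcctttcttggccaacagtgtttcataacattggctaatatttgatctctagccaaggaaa
Ltf: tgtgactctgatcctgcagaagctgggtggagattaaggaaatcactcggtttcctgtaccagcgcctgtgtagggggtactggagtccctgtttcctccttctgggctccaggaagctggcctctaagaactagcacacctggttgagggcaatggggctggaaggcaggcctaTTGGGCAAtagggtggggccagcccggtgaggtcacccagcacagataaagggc
Retnlg: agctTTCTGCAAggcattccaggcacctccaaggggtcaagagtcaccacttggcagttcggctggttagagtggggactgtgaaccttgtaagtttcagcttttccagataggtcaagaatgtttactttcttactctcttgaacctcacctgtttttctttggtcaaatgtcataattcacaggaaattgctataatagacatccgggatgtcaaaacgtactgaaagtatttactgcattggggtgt
Mmp8: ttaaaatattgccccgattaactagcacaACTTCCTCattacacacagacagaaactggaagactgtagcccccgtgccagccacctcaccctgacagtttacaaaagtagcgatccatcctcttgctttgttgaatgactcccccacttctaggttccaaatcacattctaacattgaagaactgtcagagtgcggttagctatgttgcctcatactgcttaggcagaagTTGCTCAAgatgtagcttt
In the 250 bases before the RefSeq start, TTGCNNAA was matched in 6 of the 9 genes (S100a9, Ngp, Ltf, Retnlg, Mmp8 and Ly6g) and in 9.56% of 32851 promoters of the same length. GAGGAAGT was matched in 3 of the 9 genes (S100a8, Mmp8 and Ly6g) and in 2.44% of the promoters, and TATAAA, a core promoter element, in 3 (S100a8, Ly6g and Prok2) and in 12.4%. Early and mature genes both held matches to TTGCNNAA, and a match is a description of letters and not a site of binding. All 9 genes had an entry in the RefSeq table, and the second of 2 matches of Ngp lies in bases left out.

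All 9 genes were higher in both lungs than in both primary tumors, as were 21.3% of the genes tested. In a comparison of lung with primary tumor by edgeR's quasi-likelihood test on the section sums, 8 of the 9 passed an adjusted p of 0.05, all higher in the lung, where 6.31% of the 15267 genes tested passed in that direction. The early genes rose the most, by 5.82 to 6.39 on the log2 scale. S100a9 was the gene that did not pass. In sums over a section, more neutrophils and more RNA per neutrophil cannot be told apart.

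Of the early genes, Camp was counted at 3.92 CPM in the primary tumor of Mouse_627, 24.3 CPM in that of Mouse_628, 1394 CPM in the lung of Mouse_627 and 378 CPM in the lung of Mouse_628. Ngp was counted at 23.3, 170 and 5957 CPM in the primary tumors of Mouse_627 and Mouse_628 and the lung of Mouse_627, and at 2658 CPM in the lung of Mouse_628. Ltf was counted at 7.69 and 54.0 CPM in the primary tumors and at 2029 and 562 CPM in the lungs, in the same order of mice. For each of the 3 genes the lower lung lay above the higher tumor by at least 10.4-fold, and the lung of Mouse_627 was the highest section. Within Mouse_627 the lung exceeded the tumor by 356-fold for Camp, 256-fold for Ngp and 264-fold for Ltf, and within Mouse_628 by 15.5-fold, 15.7-fold and 10.4-fold. The log2 fold change was 6.39 ± 1.04 (SE, n = 2 sections per tissue; edgeR adjusted p = 0.00935) for Camp, 5.88 ± 1.03 (edgeR adjusted p = 0.0120) for Ngp and 5.82 ± 1.06 (edgeR adjusted p = 0.0135) for Ltf. The folds within a mouse rest on the pairing of sections that the labels give. Deviations of the same mouse correlated at -0.36 between the tissues, and whether the numbers are crossed could not be settled from the data. With the numbers crossed in the block, 9 of the 9 genes passed as higher in the lung, where 11.9% of genes did. That pairing was tried because of this correlation, so a smaller spread was built into it and its calls are no support. The calls of the 3 early genes held in every alternative run with 2 sections per tissue, among them the mouse as a block and DESeq2. Without each section in turn their log2 fold changes ran from 4.62 (Ltf) to 8.05 (Camp). Such a fit leaves 1 tissue with 1 section, so that its spread comes from the other tissue alone.

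Of the mature genes, Retnlg was counted at 83.7 and 434 CPM in the primary tumors of Mouse_627 and Mouse_628 and at 2088 and 1440 CPM in their lungs. Mmp8 was counted at 32.2 and 145 CPM in the tumors and at 530 and 452 CPM in the lungs. The lungs of the mice were close for both genes, the lung of Mouse_628 at 0.690 and 0.853 times that of Mouse_627, and the tumor of Mouse_628 was the higher of the tumors by 5.18-fold for Retnlg and 4.51-fold for Mmp8. The log2 fold change between the tissues was 3.13 ± 0.75 (edgeR adjusted p = 0.0371) for Retnlg and 2.82 ± 0.65 (edgeR adjusted p = 0.0313) for Mmp8, below those of the early genes. Without the primary tumor of Mouse_627 the log2 fold change of Retnlg was 2.67. In spots of at least 1000 UMIs, an alternative chosen after the data were seen, neither gene passed. The edgeR adjusted p there was 0.0736 for Retnlg and 0.0660 for Mmp8. Ly6g, grouped with the mature genes by its use as a marker, did not follow them. It was counted at 2.0 and 13.6 CPM in the tumors and at 317 and 80.7 CPM in the lungs, a log2 fold change of 5.10 ± 0.97 (edgeR adjusted p = 0.0160). Its fold within Mouse_627 was 159, against 25 for Retnlg and 16.5 for Mmp8. The tumor levels of Ly6g were close to the probe background, at 3.38 and 2.06 times the receptor genes' median, and in Mouse_628 under their 95th percentile of 19.0 CPM.

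Both alarmin genes were counted higher in each lung than in each primary tumor. S100a8 was counted at 815 and 2923 CPM in the primary tumors of Mouse_627 and Mouse_628 and at 30277 and 13370 CPM in their lungs. S100a9 was counted at 1541 and 7291 CPM in the tumors and at 36925 and 13331 CPM in the lungs. The folds within Mouse_628 were small, 4.57 for S100a8 and 1.83 for S100a9, against 37.1 and 24.0 within Mouse_627. The log2 fold change of S100a8 was 3.93 ± 0.89 (edgeR adjusted p = 0.0293). With the mouse as a block S100a8 no longer passed (edgeR adjusted p = 0.138, where 9.17% of genes passed as higher in the lung). Nor did it pass without the filter on low counts (edgeR adjusted p = 0.0971) or in spots of at least 1000 UMIs (0.0552). Without each section in turn its log2 fold change ran from 3.24 to 4.95. S100a8 passed with DESeq2 and with all spots under tissue. It also passed with the mouse numbers crossed in the block (edgeR adjusted p = 1.04e-07, where 11.9% of genes passed as higher). That pairing was chosen from these data, so this call is no support. The log2 fold change of S100a9 was 2.91 ± 0.94 (edgeR adjusted p = 0.103). S100a9 passed with DESeq2 (adjusted p = 0.000125, where 9.41% of genes passed as higher) and, with the same limit, with the numbers crossed (edgeR adjusted p = 6.77e-05). With the mouse as a block by the labels S100a9 did not pass (edgeR adjusted p = 0.426). Prok2 was counted at 13.8 and 32.0 CPM in the tumors and at 284 and 86.7 CPM in the lungs, a log2 fold change of 3.41 ± 0.67 (edgeR adjusted p = 0.0179), with the lung of Mouse_628 above the tumor of the same mouse by 2.71-fold.

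**Figure D1:**
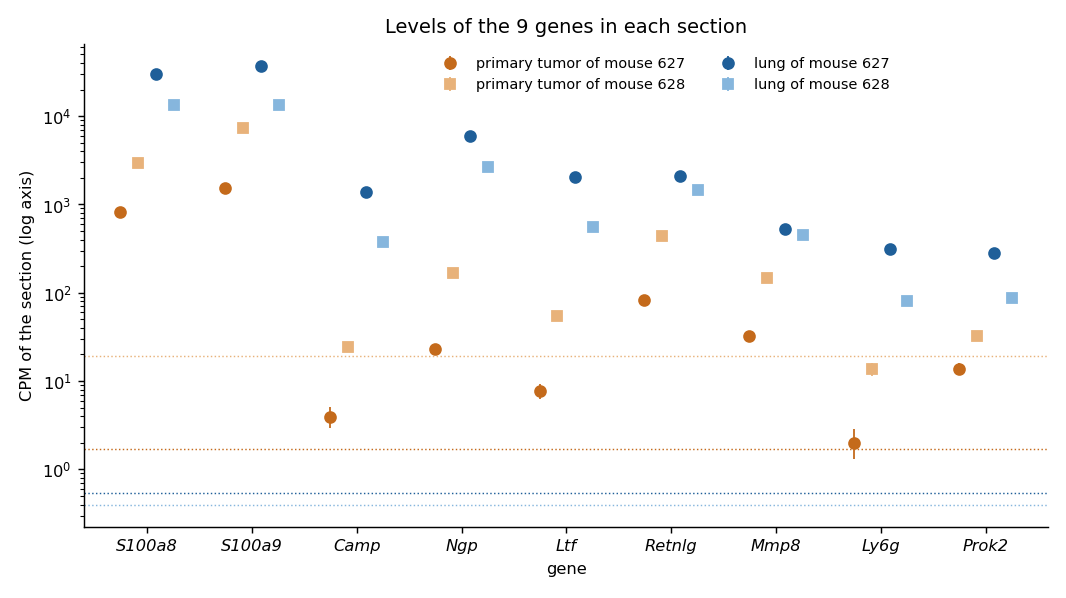
CPM (log axis) of each of the 9 genes in the 4 sections; vertical bars are exact Poisson 95% intervals of the count and dotted lines the 95th percentile of the 1178 receptor genes in the section of the same color. Both lungs sit above both primary tumors for every gene, with Camp, for example, at 3.92 and 24.3 against 1394 and 378 CPM, and Ly6g in the primary tumor of Mouse_628 (13.6 CPM) lies under the dotted line of that section (19.0 CPM).

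The share of spots with a UMI was also higher in both lungs for all 9 genes, as it was for 46.2% of all genes tested, the lung spots being deeper. Camp was detected in 2.05% of the 2490 spots of the primary tumor of Mouse_627 (95% Clopper-Pearson interval 1.53% to 2.68%) and in 7.59% of the 2372 spots of that of Mouse_628 (6.55% to 8.73%), and in 97.6% of the 1697 and 82.6% of the 2780 lung spots. The median receptor gene was detected in 0.321% and 2.99% of the tumor spots. In the tumor of Mouse_628 the share of Camp lay under the 95th percentile of receptor genes, 8.4% of spots. Ly6g was detected in 1.04% and 5.65% of the tumor spots and in 79.7% and 49.9% of the lung spots, and in Mouse_628 its share in the tumor was under the 8.4% of the 95th percentile of receptor genes. The alarmin genes were widespread in the tumors too, S100a9 with a UMI in 79.0% and 99.2% of spots. After the spots with at least 1000 UMIs were thinned to 1000, which left out 886 spots of the tumor of Mouse_627, 56 of that of Mouse_628 and 10 and 5 of the lungs, Camp was detected in 0.436% of the remaining 1604 and 2.94% of the remaining 2316 tumor spots and in 71.6% and 35.2% of the lung spots. The thinned share was higher in both lungs for 8 of the 9 genes and for 17.8% of all genes, the exception being S100a9, at 71.1% and 96.1% of the tumor spots and 99.5% and 95.2% of the lung spots. Intervals cover counting error only.

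The early genes stood in another proportion to the mature genes in each tissue. The summed CPM of Camp, Ngp and Ltf was 34.9 and 248 in the primary tumors of Mouse_627 and Mouse_628 and 9380 and 3598 in their lungs. The summed CPM of Retnlg, Mmp8 and Ly6g was 118 and 593 in the tumors and 2935 and 1973 in the lungs. The ratio of the sums was 0.296 and 0.418 in the tumors and 3.20 and 1.82 in the lungs, so that both lungs lay above 1, both tumors below 1, and the tissues did not overlap. On the log2 scale the ratio was -1.51 ± 0.35 (SD, n = 2) in the primary tumors and 1.27 ± 0.57 (SD, n = 2) in the lungs, a difference of 2.78. The 2-sided exact permutation p was 0.333, the smallest that 2 against 2 sections allow. The ratio rose from tumor to lung by 10.8-fold within Mouse_627 and by 4.36-fold within Mouse_628. The probes set the weight of each gene in the sums, so that both the level of the ratio and the size of its change depend on them. With the receptor genes' median subtracted from every gene the difference was 2.84, without Ltf 2.84, and with the 3 genes of each kind weighted equally 2.32.

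Gene by gene, the change of proportion was larger between the early genes and Retnlg or Mmp8 than between the early genes and Ly6g. Ngp over Retnlg was higher in the lung than in the tumor by 10.3-fold in Mouse_627 and 4.72-fold in Mouse_628, and Ngp over Mmp8 by 15.5-fold and 5.03-fold. Camp over Mmp8 differed by 21.6-fold and 4.98-fold. Against Ly6g, Camp differed by 2.24-fold and 2.62-fold, Ngp by 1.61-fold and 2.64-fold and Ltf by 1.66-fold and 1.76-fold, and for each of the 3 both lung ratios lay above both tumor ratios. Retnlg over S100a9 was 1.04-fold higher in the lung than in the tumor of Mouse_627 and 1.82-fold higher in Mouse_628, with a ratio of 0.0543 and 0.0595 in the tumors and of 0.0565 and 0.108 in the lungs, which overlapped between the tissues. The 2 alarmin genes themselves did not keep a fixed proportion. S100a9 over S100a8 was 1.89 and 2.49 in the tumors and 1.22 and 0.997 in the lungs, with no overlap.

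**Figure D2:**
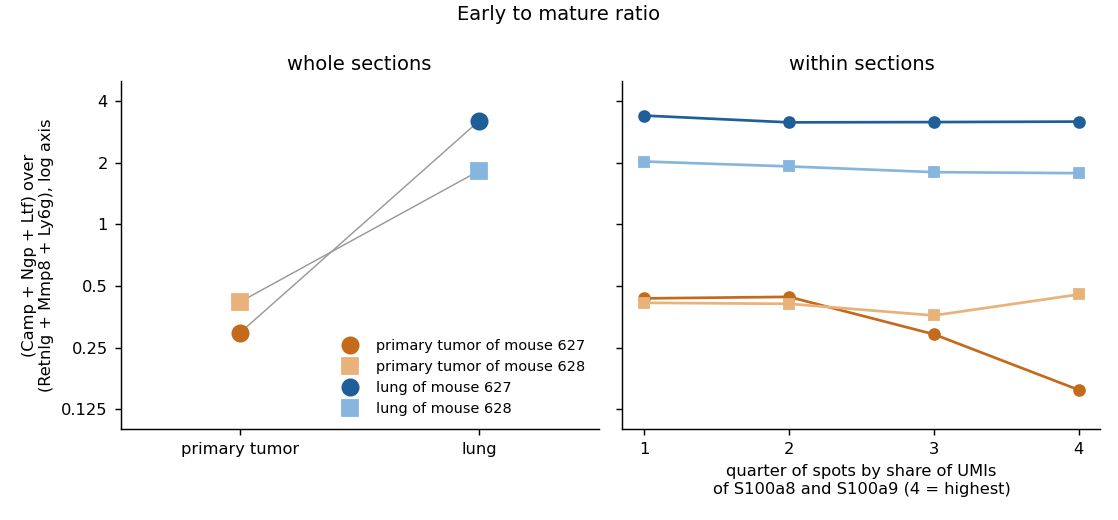
Ratio of the summed CPM of early (Camp, Ngp, Ltf) to mature genes (Retnlg, Mmp8, Ly6g) on a log axis, for whole sections (left, gray lines join the sections of 1 mouse) and for quartiles of the spots of each section by the share of UMIs of S100a8 and S100a9 (right). Both lungs (3.20 and 1.82) lie above both primary tumors (0.296 and 0.418), the lungs keep their ratio across the quartiles, and the primary tumor of Mouse_627 falls to 0.156 in its quartile richest in alarmin genes.

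Within the lungs the ratio hardly changed with the abundance of neutrophil transcripts. From the quartile of spots lowest in alarmin share to the highest, the early genes went from 585 to 8725 CPM in the lung of Mouse_628, while the ratio went from 2.02 to 1.78. In the lung of Mouse_627 the early genes went from 6222 to 11809 CPM and the ratio went from 3.39 to 3.17. The difference between the lungs was thus larger than the differences within them. In the primary tumor of Mouse_628 the ratio stayed between 0.359 and 0.455 in the 4 quartiles. In that of Mouse_627 it fell from 0.435 in the lowest quartile, on 57 early and 131 mature UMIs, to 0.156 in the highest, on 87 and 559 UMIs. Retnlg, Mmp8 and Ly6g together were at 46.9 CPM in the lowest and 362 CPM in the highest quartile there, and the early genes at 20.4 and 56.4 CPM. Monocyte and macrophage markers moved the other way, from 2268 to 1334 CPM, and the median depth was 559 and 1635 UMIs per spot. Their part in the ratio was not tested. Spots of 1 section are not replicates, and these values are given without a test.

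The 9 genes also differed in how they correlated across the spots. S100a8 and S100a9 correlated across spots at r = 0.955 and 0.983 in the lungs and at 0.583 and 0.748 in the primary tumors of Mouse_627 and Mouse_628. Pairs of early genes had a mean r of 0.516 and 0.724 in the lungs and of 0.0885 and 0.129 in the tumors, where their counts are sparse. Pairs of an early with a mature gene had a mean r of 0.362 and 0.645 in the lungs and of 0.0181 and 0.0777 in the tumors. Pairs of mature genes were lower than these in the lungs, with a mean r of 0.258 and 0.588, and stood at 0.0662 and 0.10 in the tumors. Counts differ between the genes in the lungs too, with Ly6g at 317 and 80.7 CPM and Ngp at 5957 and 2658 CPM. Retnlg with Mmp8 was at 0.357 in the lung of Mouse_627, below the mean of early pairs, and at 0.808 in that of Mouse_628, above it. The part of the counts in these correlations was not tested. After thinning to 1000 UMIs per spot, the mean for early pairs was lower, 0.166 and 0.321 in the lungs, while S100a8 with S100a9 was at 0.854 and 0.824 there. In the tumors S100a8 with S100a9 was then at 0.394 and 0.619. Pairs of an early with a mature gene fell to 0.101 and 0.281 in the lungs, and pairs of mature genes to 0.0276 and 0.218. Thinning evens the depth of the spots and not the counts of the genes. Neighboring spots were alike for S100a9, at r = 0.933 and 0.969 in the lungs and 0.747 and 0.877 in the tumors. They were less so for Ly6g, a gene of far lower counts, at 0.276 and 0.419 in the lungs. The total UMIs of neighboring spots (log scale) were alike too, at 0.874 and 0.904 in the lungs and 0.986 and 0.974 in the tumors. All spots of a section share its library, and no p-value is given for them.

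**Figure D3:**
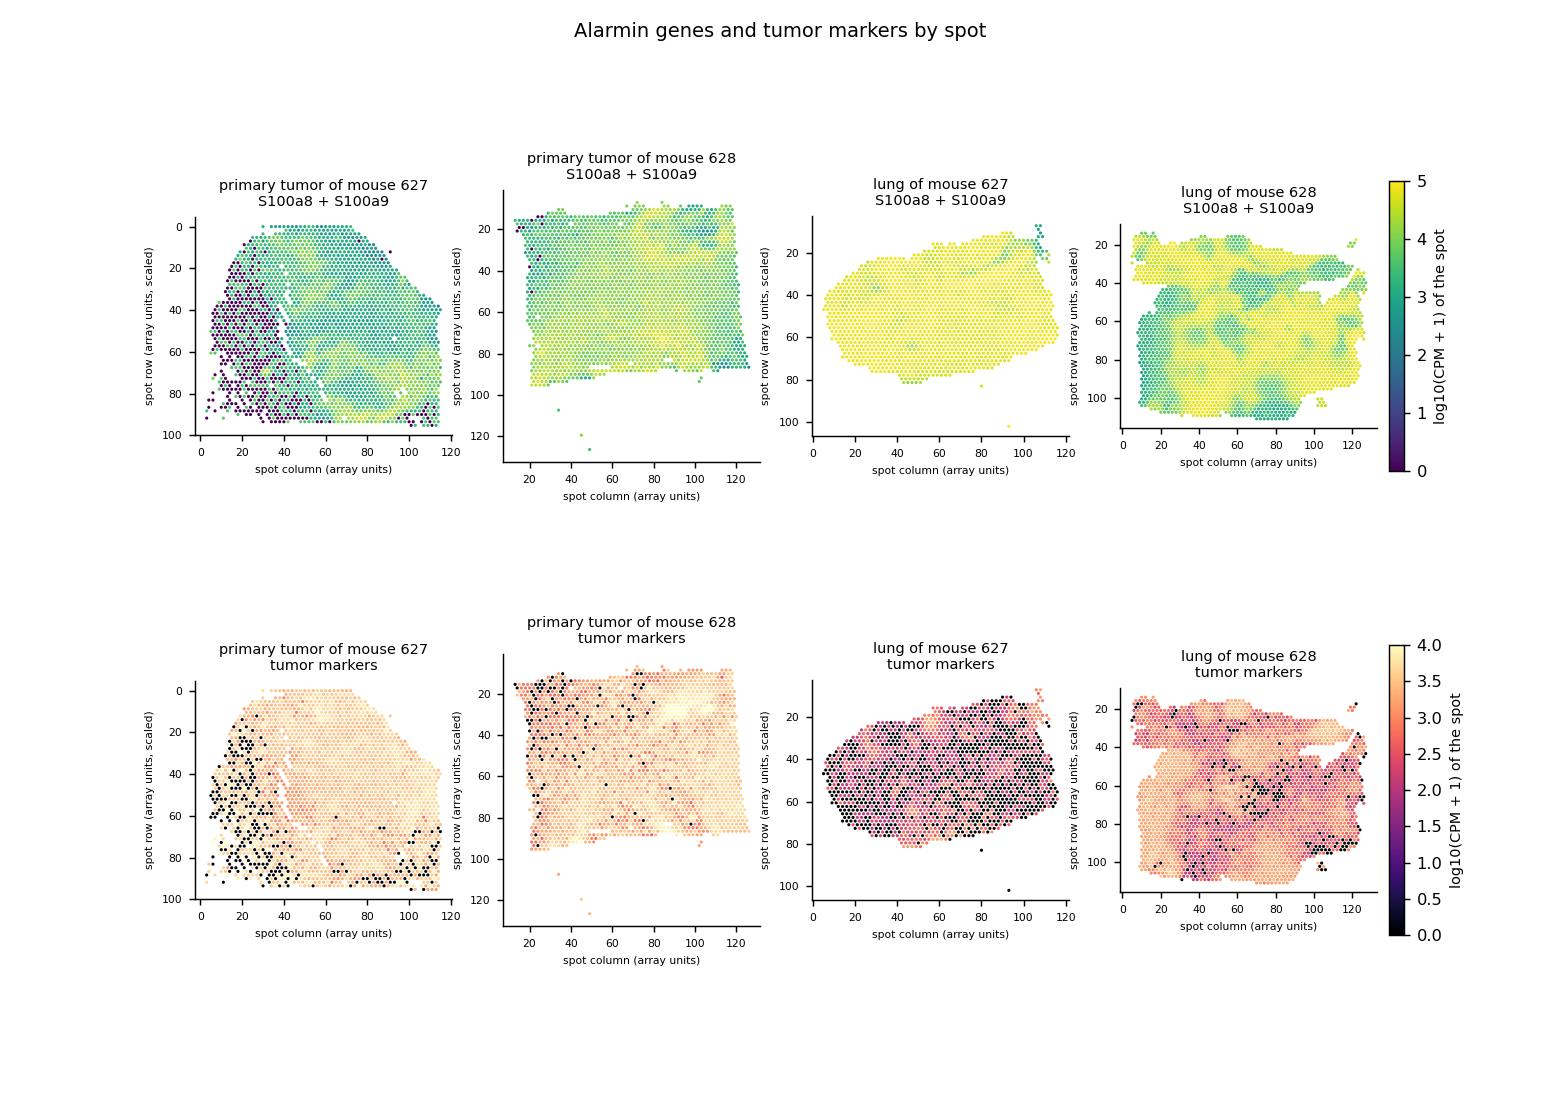
Kept spots of the 4 sections at their place on the array (array units), colored by log10(CPM + 1) of S100a8 and S100a9 together (upper row) and of 6 tumor markers (lower row). The lung of Mouse_628 shows patches low in the alarmin genes where tumor markers are high, while the lung of Mouse_627 is high in the alarmin genes over nearly its whole area except a strip at its upper right. The primary tumor of Mouse_627 holds many spots with no alarmin UMI on its left side.

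Lung spots were then split by their share of UMIs on 6 tumor markers (Hmga2, Plau, Mmp3, Krt8, Epcam and Lgals7), and the highest quartile of each lung was set against the lowest. All 9 genes were lower in the tumor-marker-rich spots of both lungs, where 24.2% of all genes were lower in both. The sizes differed between the mice. In the lung of Mouse_628, S100a8 was counted at 28908 CPM in the 695 poor spots and at 2722 CPM in the 695 rich spots, a 10.6-fold difference. In the lung of Mouse_627 it was counted at 33342 CPM in the 424 poor spots and at 22058 CPM in the 424 rich spots, a 1.51-fold difference. The other 8 genes were lower by 7.32-fold (Ltf) to 11-fold (S100a9) in Mouse_628 and by 1.39-fold (Ly6g) to 1.55-fold (Mmp8) in Mouse_627. Ngp, for example, went from 5848 to 530 CPM in Mouse_628 and from 6502 to 4347 CPM in Mouse_627.

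By edgeR's quasi-likelihood test with the mouse as the replicate, 0 of 12271 genes passed an adjusted p of 0.05 between these classes (0% called), 240 (1.96%) had an unadjusted p under 0.05, and DESeq2 called 0 as well. The log2 fold changes of the 9 genes ran from -1.11 ± 1.16 (Ltf) to -1.88 ± 0.79 (Mmp8), with edgeR adjusted p between 0.665 and 0.725. With the mouse as a block they ran from -1.86 to -2.21, with edgeR adjusted p between 0.256 and 0.375, and 0 genes passed. The early to mature ratio did not follow the fall of its genes. It was 3.15 in poor and 3.27 in rich spots of the lung of Mouse_627, and 1.83 and 1.87 in those of Mouse_628. The mean difference on the log2 scale was 0.04 ± 0.01 (SD, n = 2 mice), small beside the 2.78 between the tissues, and below 0 without Ltf.

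The rich class was not the same tissue in both lungs, and 720 of the 1697 spots of Mouse_627 held no tumor-marker UMI, so that its 424 poor spots were taken among ties. In Mouse_628 it held 2833 CPM of alveolar markers against 12906 CPM in the poor class, and a median of 15668 against 6961 UMIs per spot. In Mouse_627 it held 12342 against 14251 CPM of alveolar markers, tumor markers reached 576 CPM, of which Epcam and Krt8, genes of epithelia, gave 130 and 177 CPM, against 1944 CPM in Mouse_628, and markers of secretory airway cells, such as Scgb3a2 and Bpifa1, stood at 1374 against 257 CPM. The sum of monocyte and macrophage markers was also higher in the rich class of both lungs, at 814 against 593 CPM and 1135 against 541 CPM, with C1qa, C1qb and C1qc each higher there. Ccr2 was lower there, from 331 to 269 CPM and from 151 to 49.4 CPM, and Csf1r was not higher, from 117 to 96.8 CPM and from 72.1 to 71.4 CPM. The sum of erythroid markers was lower in the rich class of both lungs, as the granule genes were, at 120 against 149 CPM and 17.7 against 108 CPM. The part of these markers in the lower granule genes was not tested. With 4 markers that are not genes of lung epithelium (Hmga2, Plau, Mmp3 and Lgals7), a choice made after seeing the classes, the log2 fold changes ran from -0.83 (Ly6g) to -1.59 (Mmp8) and none passed. With classes by alveolar markers instead, the alveolar-poor against the alveolar-rich spots, they ran from -0.39 (Ltf) to -1.08 (Mmp8). All 9 genes were then lower in the alveolar-poor spots of Mouse_628, and 8 of the 9 slightly higher in those of Mouse_627, S100a8 at 29673 against 28814 CPM. Between the tumor-marker-poor and the tumor-marker-rich class, Csf3, which encodes G-CSF, went from 2.02 to 19.7 CPM in Mouse_627 and from 28.4 to 292 CPM in Mouse_628 (log2 fold change 3.12 ± 1.61; edgeR adjusted p = 0.665), and Csf3r, its receptor on neutrophils, from 3387 to 2263 CPM and from 2460 to 259 CPM.

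Ltf parted from the other 8 genes at the airways. Lactoferrin is also a secretory product of glandular and airway epithelium. In the 139 spots of the lung of Mouse_628 with the highest share of airway markers, Ltf was counted at 2197 CPM against 508 CPM in the other spots, 4.33-fold higher. The other 8 genes were lower in these spots, at 0.590 (Retnlg) to 0.692 (Ngp) times the other spots. In the 84 such spots of the lung of Mouse_627, Ltf was at 1696 against 2045 CPM, 0.829 times the other spots, again the highest of the 9, with the other 8 at 0.546 (Retnlg) to 0.728 (Mmp8). Ltf was thus the highest of the 9 in both lungs and above the other spots in Mouse_628 alone, and the difference was not tested. In that lung 1 spot reached 130 UMIs of Ltf. Without Ltf the early to mature ratio was 2.50 and 1.54 in the lungs and 0.231 and 0.327 in the tumors.

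**Figure D4:**
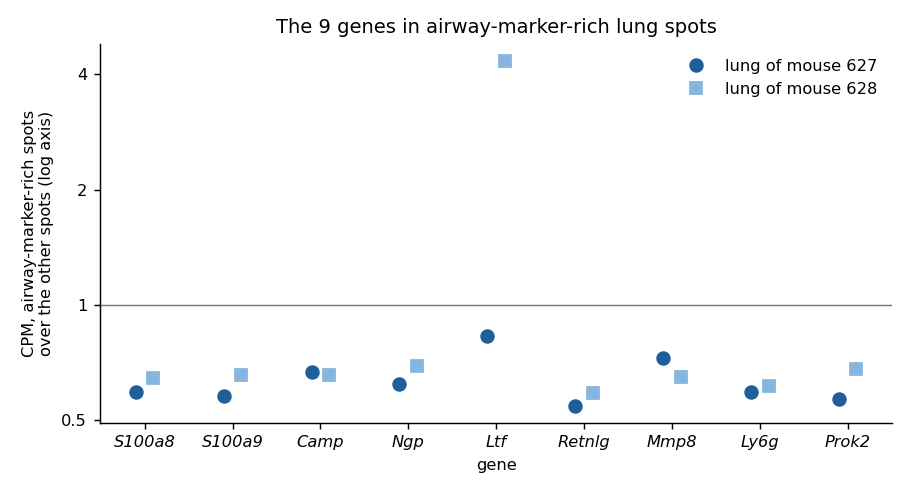
CPM of each of the 9 genes in airway-marker-rich lung spots (84 in Mouse_627, 139 in Mouse_628) divided by that in the other spots of the same lung, on a log axis. Ltf stands at 4.33 in Mouse_628 and at 0.829 in Mouse_627, above the other 8 genes, which lie between 0.546 and 0.728.

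Ltf also stood apart in spots of the lung of Mouse_628 rich in keratinocyte markers, at 1.65 times the other spots against 0.828 to 0.908 for the other 8 genes, and in spots rich in cardiac muscle markers, at 0.947 against 0.578 to 0.719. In Mouse_627 it did not, at 0.989 within a range of 0.939 to 1.07 and at 0.877 within a range of 0.725 to 0.915. In the spots richest in monocyte and macrophage markers (Csf1r, Adgre1 and C1qa among them), all 9 genes were low together, at 0.422 (Ngp) to 0.536 (Ltf) times the other spots in the lung of Mouse_627 and at 0.254 (Camp) to 0.313 (Ltf) in that of Mouse_628. In the lung of Mouse_628 they were high together in the 139 spots richest in erythroid markers, at 1.83 (Prok2) to 2.23 (Ltf) times the other spots, and in Mouse_627 at 1.12 (Prok2) to 1.24 (Ngp) times. The same lung had all 9 genes high in spots rich in T and NK cell markers (1.47 to 1.94 times), B and plasma cell markers (1.55 to 1.98 times) and alveolar markers (1.41 to 1.92 times), so that this was not particular to erythroid spots. In Mouse_627 these ratios ran from 0.810 to 1.10.

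In the primary tumors, spots were split in the same way by 10 genes of the hypoxia response, among them Car9, Slc2a1 and Vegfa. No gene of the 9 passed the test, in edgeR 0 of 14367 genes did (0% called; 189, or 1.32%, at an unadjusted p under 0.05), DESeq2 called 6 genes, and 57 (0.397%) passed with the mouse as a block, none of the 9 among them. In Mouse_627, S100a8 was counted at 561 CPM in hypoxia-marker-poor and at 1124 CPM in hypoxia-marker-rich spots, and Retnlg at 50.0 and 113 CPM. In Mouse_628, S100a8 was counted at 2824 and 2472 CPM and Retnlg at 330 and 406 CPM. Retnlg was higher in the rich class of both tumors, where 15.1% of all genes were, and Ly6g lower in both, where 37.0% were. Ly6g rested on 9 and 4 UMIs in Mouse_627 and on 29 and 38 UMIs in Mouse_628, where the median receptor gene also went from 15.8 CPM in the poor to 4.00 CPM in the rich class, and its part in the lower Ly6g was not tested. The median depth was higher in the rich class, at 1901 against 652.5 and 2468 against 1432 UMIs per spot. In Mouse_627 the summed UMIs were not, at 2423415 in the rich and 2598419 in the poor class, and with classes made among spots of at least 1000 UMIs its medians were 5160 in the rich and 7745 in the poor class. Monocyte and macrophage markers stood at 2420 CPM in the poor and 1391 CPM in the rich class of Mouse_627 and at 330 and 384 CPM in those of Mouse_628, and their part in these values was not tested. The remaining 7 genes were higher in Mouse_627 and lower in Mouse_628. Camp, 1 of them, went from 26.3 to 15.8 CPM in Mouse_628, beside the fall of the median receptor gene from 15.8 to 4.00 CPM. The part of this background in the lower Camp was not tested. The log2 fold changes of the 9 genes ran from -0.92 ± 1.37 (Ly6g) to 0.65 ± 0.81 (Retnlg), with edgeR adjusted p between 0.965 and 0.981. The early to mature ratio of the sums was lower in the rich class of both tumors. It was 0.263 against 0.376 in Mouse_627 and 0.298 against 0.494 in Mouse_628, a mean log2 difference of -0.62 ± 0.15 (SD, n = 2 mice). With the 3 genes of each kind weighted equally the mean was -0.06 and the mice parted. The ratio was then higher in the rich class of Mouse_627, 0.549 against 0.461, and lower in that of Mouse_628, 0.487 against 0.630.

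**Figure D5:**
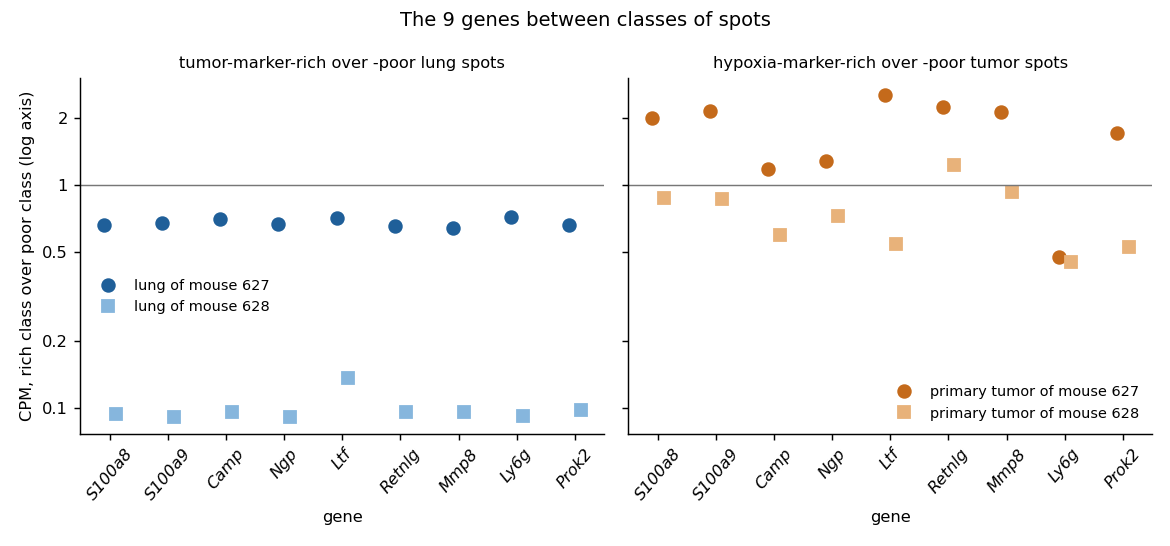
CPM of each of the 9 genes in the marker-rich class of spots divided by that in the marker-poor class of the same section (log axis), for tumor markers in the lungs (left) and hypoxia markers in the primary tumors (right). In the lungs all points lie below 1, at 0.645 to 0.721 in Mouse_627 and at 0.0905 to 0.137 in Mouse_628, while the tumors lie on either side of 1.

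Part of the other granulocyte genes listed also passed as higher in the lung. Of 5 genes of azurophil granules, which are filled before the specific granules, 2 passed the test higher in the lung, Prtn3 (proteinase 3; log2 fold change 3.96 ± 0.79, edgeR adjusted p = 0.0192) and Mpo (myeloperoxidase; 4.75 ± 1.04, edgeR adjusted p = 0.0262). Their lung levels were modest, with Prtn3 at 86.3 and 30.2 CPM and Mpo at 47.4 and 13.5 CPM in Mouse_627 and Mouse_628, and at 1.70 and 8.26 CPM and 0.222 and 2.85 CPM in the tumors, where 4 of the 5 genes in Mouse_627 and all 5 in Mouse_628 lay at or under the receptor genes' 95th percentile. Ctsg (cathepsin G) and Elane (neutrophil elastase) had log2 fold changes of 2.60 and 3.09 and did not pass, but did with the mouse as a block (edgeR adjusted p = 0.000122 and 0.00125). All 5 lists of neutrophil genes were chosen with earlier results known, and their medians stood at 2.64 to 3.70 on the log2 scale, against -0.00 over all genes tested, of which 6.31% passed as higher. With the mouse as a block, where 9.17% passed as higher, the calls were 4 of 5 azurophil, 9 of 10 specific granule, 3 of 4 gelatinase and late, 8 of 11 surface and 4 of 5 factor genes. Of 10 further specific granule genes tested, all 10 had a positive log2 fold change and 6 passed as higher in the lung. Wfdc21, for example, was at 65.1 and 253 CPM in the tumors and 2915 and 1354 CPM in the lungs. Lcn2, the gene of lipocalin 2, was at 1544 and 2778 CPM in the tumors and at 3770 and 1606 CPM in the lungs, which overlapped (log2 fold change 0.69 ± 0.62, edgeR adjusted p = 0.572). Markers of other blood cells were in part higher in the lung too. Of 3 erythroid genes tested, Hbb-bt, a beta-globin, rose by 3.19 on the log2 scale (edgeR adjusted p = 0.0409), from 3.55 and 19.2 CPM in the tumors to 115 and 40.8 CPM in the lungs, and the erythroid markers summed to 6.28 and 47.7 CPM in the tumors and 146 and 53.2 CPM in the lungs. Of 5 B and plasma cell genes none passed and 1, Cd79a, did with the mouse as a block (edgeR adjusted p = 0.00852), and their sum overlapped between the tissues, at 6.50 and 31.8 CPM in the tumors and 158 and 22.4 CPM in the lungs. Their part in the values of the granule genes was not tested.

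Of 4 genes of gelatinase granules and late maturation, 3 rose, Pglyrp1 by 4.44, Mmp9 by 3.54 and Mmp25 by 3.85 on the log2 scale. Padi4, the peptidylarginine deiminase of neutrophil extracellular traps, was counted at 715 and 718 CPM in the tumors and at 533 and 511 CPM in the lungs. Both lungs thus lay below both tumors in CPM, and the gene did not pass (log2 fold change -0.15 ± 0.42, edgeR adjusted p = 0.879). Of 11 surface receptors, all 11 had a positive log2 fold change and 6 passed as higher in the lung, where 6.31% of genes did. Csf3r, at 3.28, and the chemokine receptor Cxcr2, at 3.98, were among the 6. Of 5 transcription factors of granulocytes, 4 rose, Spi1 (PU.1) by 2.84, Cebpd by 2.22, Cebpa by 2.64 and Cebpe, which drives specific granule genes, by 3.58, with Cebpe at 53.3 and 18.0 CPM in the lungs and 1.03 and 6.89 CPM in the tumors. Both tumor levels of Cebpe lay under the receptor genes' 95th percentile (1.70 and 19.0 CPM), as did those of Cebpa (5.60 CPM) and Mmp25 (15.1 CPM) in the tumor of Mouse_628, so that these folds rest on a base near the probe background. Cytokines that recruit or raise neutrophils were the reverse. Of 4 tested, Cxcl1, Cxcl3 and Cxcl5 passed as lower in the lung, by 2.67, 5.70 and 3.83 on the log2 scale, where 1.15% of genes did. Csf3, at 751 and 837 CPM in the tumors and 6.65 and 157 CPM in the lungs, was lower but did not pass (log2 fold change -3.10 ± 1.01, edgeR adjusted p = 0.108). All 4 passed as lower with the mouse as a block, where 2.73% of genes did. Of 5 receptors of the alarmins and of prokineticin 2, Ager, which is itself an alveolar marker, was higher in the lung, and Tlr4, at 24.6 and 32.0 CPM in the tumors and 18.6 and 13.8 CPM in the lungs, did not pass. None of 7 monocyte and macrophage markers passed, though Ccr2 (60.9 and 14.7 CPM in the tumors, 308 and 94.1 CPM in the lungs) and Csf1r passed as higher in the lung with the mouse as a block (edgeR adjusted p = 1.6e-08 and 0.0173). The sum of the 7 was 1891 and 347 CPM in the tumors and 641 and 912 CPM in the lungs.

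Of 27 panel genes that lie between Camp and Ltf on chromosome 9, other than Ngp, 22 were tested between the tissues, with a median log2 fold change of -0.26, and 1 (Nbeal2) passed higher in the lung, at 1.49 on the log2 scale, where 6.31% of all genes tested passed as higher.

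Across the spots of all 4 sections, the genes most like the sum of the 9 were searched among 4225 genes with at least 0.2 UMIs per spot in every section. Wfdc17, a whey acidic protein-like gene, came first with a mean r of 0.668 over the 4 sections, followed by Ifitm1 (0.643), Csf3r (0.607), Wfdc21 (0.593), Grina (0.569) and Lcn2 (0.562), and by Alox5ap, Saa3, Tmsb4x and Srgn down to 0.502. The median gene had a mean r of -0.0447 and the 95th percentile was 0.152. For Wfdc17, r was 0.370 and 0.504 in the primary tumors and 0.846 and 0.95 in the lungs. With the early genes alone its r in the tumors was 0.0740 and 0.180, and with the mature genes 0.257 and 0.332. S100a8 and S100a9 weigh most in the sum, at 2357 CPM in the tumor of Mouse_627 against 34.9 for the early and 118 for the mature genes. Lcn2 thus went with the 9 genes within the lungs, at 0.783 and 0.896, though its section levels overlapped between the tissues. The genes nearer to the mature than to the early genes were led by Srgn, Cebpb and Hilpda, with a mean r with the early less that with the mature genes of -0.108, -0.0860 and -0.0772, and those nearer to the early genes by Cd74, Selenop and Sgpp1, with 0.0450, 0.0343 and 0.0326. In counts this sparse, differences of that size are no finding.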

How the data were processed

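Per the labels and file headers, the authors mapped Visium probe libraries of fixed, paraffin-embedded sections to mm10 with Space Ranger 2.0.0 and deposited the UMI counts of every gene in each spot, not normalized. Spots with over 200 genes were kept (9339). The 9 genes and all marker lists were chosen with earlier results of these data known, so none is independent evidence. Most genes named beyond the 9 are, from each list, up to 4 of the highest mean CPM, and those most like the 9 across spots. Epcam, Lgals7, C1qb, Csf1r and Nbeal2 are among those named outside this rule.

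UMIs were summed per section or class of spots and tested in R 4.3.3 with edgeR 4.0.16 (the quasi-likelihood test after TMM scaling and filterByExpr, with Benjamini-Hochberg adjusted p over all genes tested and a threshold of 0.05), with DESeq2 1.42.0 as an alternative. Standard errors were taken from the fold change and the F statistic. The markers that define a class were fitted and adjusted with the other genes, but left out of the counts of genes tested and called. Spots tied in marker share kept the order of the barcodes in the files. CPM used the UMIs of the kept spots. Both sections of a mouse come from 1 animal and both classes from 1 section, so the mouse pairs them. Deviations of the same mouse correlated at -0.36 between tissues, 0.54 between tumor-marker classes and 0.56 between hypoxia-marker classes. The p-values rest on 2 mice. Spatial values used Python 3.11.15 and scipy 1.17.1. For the main sums of each comparison, the edgeR fit with and without the block was also run on simulated counts. The other fits were not, and the outcome is not given here. Gene positions come from GENCODE vM21 and promoters from RefSeq.

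The ratio of early to mature genes was taken from summed CPM. Alternatives were no filter on low counts, the mouse as a block, all spots under tissue, spots of at least 1000 UMIs, a division of the spots in 3 instead of 4, other class markers, other forms of the ratio and leaving out each section or mouse.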

Additional observations from a re-analysis of the deposited data

How the results depend on the processing

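Of the results recomputed under alternatives, the early to mature difference between the tissues (2.78 on the log2 scale) kept its direction throughout, at 2.32 to 2.84 under other forms and spots and at 2.37 to 3.18 without each section in turn. The count of genes called between the tissues, 1139, was 1817 with the replicate block, 2022 without the filter, 2644 with DESeq2 and 681 in spots of at least 1000 UMIs, and 883 to 6604 without each section in turn. With a crossed pairing of the mice, tried because same-mouse deviations ran against each other, it was 2565, of which 1818 were higher in the lung. A pairing chosen in this way takes up more of the spread, so its larger count is no support. Without the primary tumor of Mouse_627 most of the 6604 calls, 5217, were lower in the lung. Between tumor-marker classes the paired fit with the replicate block called 0 genes, as did every other alternative. There the mean difference of the ratio, 0.04, was 0.11 with equal weights, 0.14 with classes by alveolar markers, 0.0029 with the 4 tumor markers, -0.0158 without Ltf, and 0.03 to 0.05 without each mouse. Between hypoxia-marker classes 57 genes were called with the replicate block, 35 with the block in spots of at least 1000 UMIs, and 6 with DESeq2. The ratio difference of -0.62 was -0.85 with the spots divided in 3 instead of 4 and -0.73 to -0.52 without each mouse. With equal weights it was -0.0579, the mean of a rise in Mouse_627 and a fall in Mouse_628. Single genes changed direction there. Over the removal of each mouse, S100a8 ran from -0.19 to 1.00, S100a9 from -0.21 to 1.10, Mmp8 from -0.10 to 1.05, Camp from -0.70 to 0.19, Ngp from -0.45 to 0.34, Ltf from -0.85 to 1.20 and Prok2 from -0.89 to 0.73. Ngp was at 0.0128 with the block and 0.0736 without the filter, and Prok2 at 0.131 with the block in spots of at least 1000 UMIs and 0.0666 with 3 divisions of the spots. The cause of these changes was not tested. Leaving out the filter moved the median of all genes from -0.18 to -0.38 there and from -0.00 to -0.11 between the tissues. The 27 UMIs of Ly6g in the primary tumor of Mouse_627 limit any ratio that rests on it.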
